A study of Mus musculus with 7 samples.

Results

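The smooth muscle contractile apparatus was followed in carotid artery RNA from the offspring of reciprocal crosses between ApoE-deficient and wild-type mice. The set comprised 33 genes chosen by name, and each was represented by the probe set with the highest mean signal over the 7 arrays among those annotated to 1 symbol. Such a probe set was found for 32 of the 33, out of 18193 genes on the array, and Rock2 had none in the annotation used here. All 32 had a mean signal above the lower limit of 23.6 that was set for the test. In the first group (4 arrays) the mother was ApoE-/- and hypercholesterolemic and the father wild type, and in the second (3 arrays) the mother was wild type and normocholesterolemic and the father ApoE-/-. The offspring of both groups were ApoE-/+, that is, they carried 1 null allele of the apolipoprotein E gene. The groups are called ApoE-null mother and wild-type mother here. Because mother and father change together, maternal and paternal effects cannot be told apart. Strain, age, sex, litter and pooling are not given in the labels, nor whether the arrays stand for separate animals, so the spread behind every p-value may be partly technical. The titles number the arrays in 1 run with each cross in its own block, so array order and cross cannot be told apart.

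Smooth muscle contracts when calcium entering through voltage-gated channels binds calmodulin and activates myosin light chain kinase, which phosphorylates the regulatory light chain and lets myosin pull on actin. Myosin phosphatase reverses the step, and the inhibitor CPI-17 restrains the phosphatase. Many genes of this apparatus are switched on by serum response factor and its coactivator myocardin, which act at a DNA element named the CArG box. Arterial smooth muscle cells are known to lower contractile genes when they leave the contractile state in a diseased wall.

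The CArG box, which is CC, then 6 bases that are each A or T, then GG, was searched on both strands of RefSeq promoter windows (build GRCm38.p6) that run from 250 bases before to 50 bases after a start site. Windows were present for 27 of the 33 genes. An exact box lay in at least 1 window of 4 of the 27 (14.8%), against 488 of 27025 genes of the table (1.81%). A box with 1 of its 6 core bases being G or C lay in windows of 4 of the 27 (14.8%), against 9.69% of genes. The CArG box is the element that serum response factor binds. Boxes of 5 genes are shown in capitals with 20 bases on each side. Those of Myl9, Myl6, Vcl and Srf are exact, and the pair of Acta2 have 1 G or C in the core. Srf holds a further exact box in the same window, which forms the last 10 bases of the stretch shown and is left there in lower case.
Acta2: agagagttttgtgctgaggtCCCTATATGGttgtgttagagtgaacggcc
Acta2: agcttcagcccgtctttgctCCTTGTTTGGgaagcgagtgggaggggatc
Myl9: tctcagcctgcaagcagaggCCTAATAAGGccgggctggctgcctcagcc
Myl6: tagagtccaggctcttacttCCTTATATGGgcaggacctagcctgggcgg
Vcl: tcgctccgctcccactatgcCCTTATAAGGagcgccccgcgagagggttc
Srf: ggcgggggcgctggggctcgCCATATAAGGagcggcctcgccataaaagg

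The stretches of Acta2, the actin that defines vascular smooth muscle, are at chr19:34255428-34255477, minus strand, and chr19:34255378-34255427, minus strand, with the boxes beginning 84 and 34 bases upstream of the start site. That of Myl9 is at chr2:156775283-156775332, plus strand, that of Myl6 at chr10:128493030-128493079, minus strand, that of Vcl at chr14:20929151-20929200, plus strand, and that of Srf, the gene of serum response factor itself, at chr17:46556215-46556264, minus strand. A match is a description of letters and not a measured site. The 4 genes with an exact box had log2 differences between the crosses of -0.12 to 0.02, and the 22 measured genes with a window and no exact box had differences of -0.38 to 0.25.

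The carotid RNA carried the contractile transcripts on every array. None of the 32 genes was at or under the highest of 27 probe sets for bacterial transcripts, a measure of background, on any array. Signals are MAS5 values, a linear intensity scaled so that all 7 arrays have the same trimmed mean, and a level is compared only within 1 probe set. Acta2 (probe set 1416454_s_at) had signals of 12551, 11477, 10273 and 11296 in the ApoE-null mother group, against 9492, 13536 and 10743 in the wild-type mother group. Myh11 (probe set 1448962_at), the smooth muscle myosin heavy chain and the most specific marker of the lineage, had signals of 5891, 4754, 4449.5 and 5509 in the ApoE-null mother group, against 4920.3, 5181 and 6051 in the wild-type mother group. Tagln (probe set 1423505_at), which encodes the actin-binding protein SM22 alpha, had signals of 6956, 6468, 5985 and 6972 in the ApoE-null mother group, against 5671, 7716 and 6845 in the wild-type mother group. For these 3 defining genes the groups overlapped, and the array of wild-type mother 1 was the lowest for Acta2 and Tagln. The largest signals on the arrays were 12364 to 17022, so Acta2 was measured near the top of the scale, and saturation was not assessed.

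No difference in the contractile set passed the test across all probe sets. Of the 32 genes, 0 passed at an adjusted p of 0.05 in either direction (limma, adjusted p = 0.601 to 0.992), where 1 of 12713 genes (0.00787%) and 1 of 27027 probe sets (0.0037%) passed over the whole table. The groups were apart for 0 of the 32 genes, against 4.34% of all genes with the ApoE-null mother arrays higher and 4.24% with them lower (8.58% in all). At an unadjusted p under 0.05 in limma there were 0 higher genes and 1 lower gene, Pdlim7, against 4.43% of all genes higher and 4.22% lower (8.65% in all). Differences are on the log2(signal + 2) scale, with positive values where the ApoE-null mother arrays were higher. Of the 32, 9 were positive and 23 negative. Their median was -0.08, beside -0.01 over all 12713 genes, of which 6205 were positive. Leaving out wild-type mother 1 gave a median of -0.17. Leaving out wild-type mother 3 gave 0.01, the only positive median with 1 array left out, so its direction rested on that array.

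The chosen probe sets had intervals of limited width. The 95% interval of each of their 32 differences, not adjusted for the number of genes, lay within a 2-fold change either way, and that of 23 lay within a 1.5-fold change either way. These intervals assume the same spread in both groups, while the SD was larger in the wild-type mother group for 27 of the 32 genes. Intervals without that assumption were not computed, so the limits may be too narrow where the spreads differ. Acta2 had an interval of 0.833 to 1.25 as a fold of ApoE-null mother over wild-type mother, Tagln of 0.809 to 1.2 and Myh11 of 0.778 to 1.17. The narrowest was that of Ppp1r12a, at 0.874 to 1.21, and the widest that of Lmod1, at 0.57 to 1.33. These limits are those of the chosen probe sets only, since the interval of 12 of the 70 fitted probe sets of these genes, all 12 among the others, went beyond 2-fold.

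**Figure D1:**
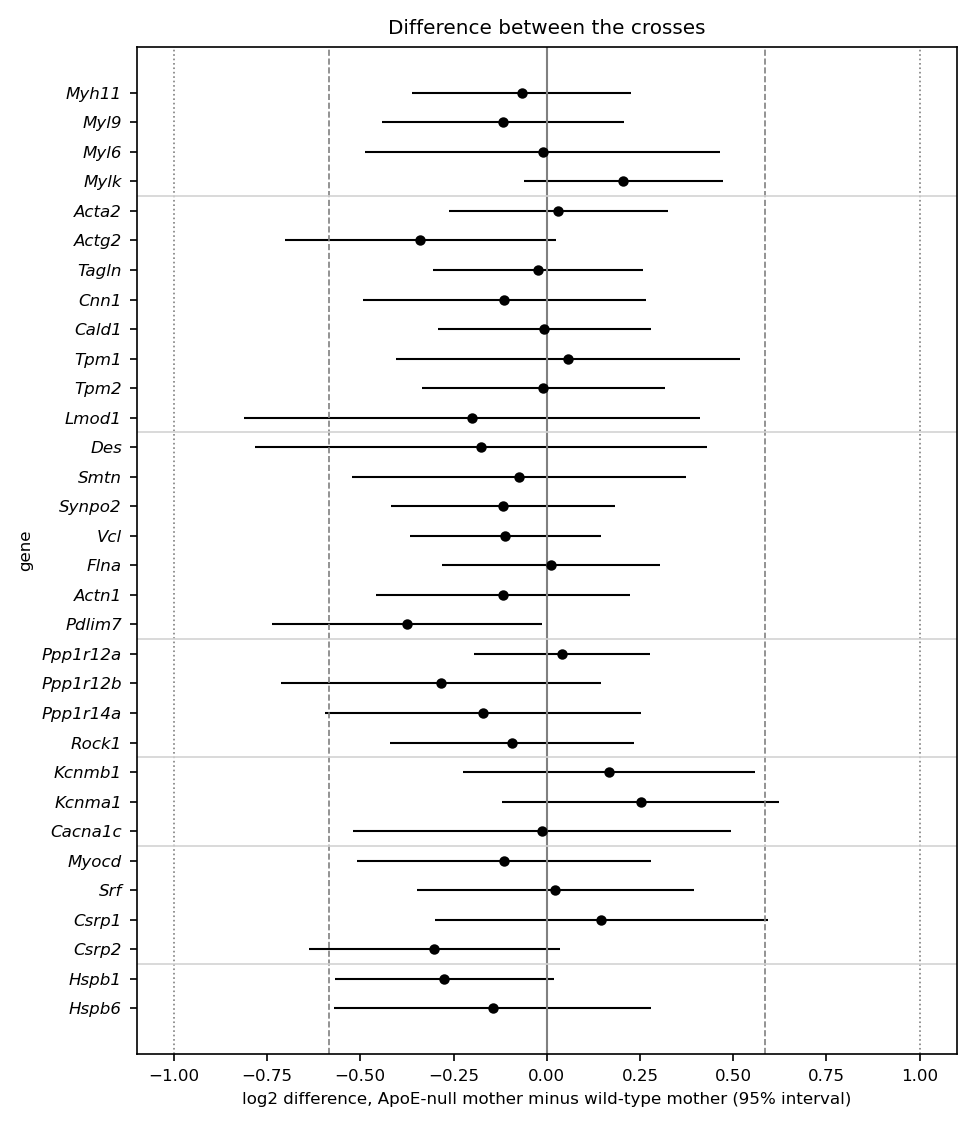
Log2 difference of each of the 32 genes (points, ApoE-null mother minus wild-type mother, horizontal axis) with its 95% interval (lines), grouped by role from top to bottom. Dashed lines mark a 1.5-fold and dotted lines a 2-fold change; 31 intervals include 0, and that of Pdlim7 runs from -0.74 to -0.01.

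In the thick filament and its kinase, 1 of 4 differences was positive, with a median of -0.04. Mylk (probe set 1425506_at), which encodes the myosin light chain kinase that starts contraction, had signals of 7445, 6342, 6038 and 6302 in the ApoE-null mother group, against 5241, 5408 and 6355 in the wild-type mother group. Only wild-type mother 3 lay within the range of the ApoE-null mother arrays, and the gene had a log2 difference of 0.21 ± 0.12 (SE; limma, adjusted p = 0.679). Myl9 (probe set 1452670_at), the regulatory light chain that the kinase phosphorylates, had signals of 10137, 8629, 8112 and 9344 in the ApoE-null mother group, against 7697, 11618 and 10484 in the wild-type mother group, a log2 difference of -0.12 ± 0.15 (SE; limma, adjusted p = 0.852). The wild-type mother arrays enclosed all ApoE-null mother arrays for this gene, with wild-type mother 1 lowest and wild-type mother 2 highest. Myh11 had a log2 difference of -0.07. Myl6, the essential light chain, had signals of 732 to 969.5 in the ApoE-null mother group, against 629 to 1252 in the wild-type mother group, and a log2 difference of -0.01.

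In the thin filament, 2 of 8 differences were positive, with a median of -0.02. Actg2 (probe set 1422340_a_at), the gamma actin most abundant in visceral smooth muscle, had signals of 2433, 1747, 1866 and 2208 in the ApoE-null mother group, against 2073, 3010.1 and 2776 in the wild-type mother group. Wild-type mother 1 was the array within the ApoE-null mother range, and the gene had a log2 difference of -0.34 ± 0.17 (SE; limma, adjusted p = 0.628). Its value was -0.50 to -0.23 when each array was left out in turn, with the lowest without wild-type mother 1. Lmod1 (probe set 1427485_at), an actin nucleator of smooth muscle, had signals of 927, 427, 421 and 692 in the ApoE-null mother group, against 502, 739 and 811 in the wild-type mother group, a log2 difference of -0.20 ± 0.28 (SE; limma, adjusted p = 0.868). ApoE-null mother 1 had the highest Lmod1 signal and ApoE-null mother 2 and 3 the lowest, so the spread within the ApoE-null mother group exceeded the difference between groups. The value was -0.42 to -0.05 with 1 array left out at a time, lowest without ApoE-null mother 1.

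The remaining thin filament genes lay closer to 0. Acta2 had a log2 difference of 0.03 and Tagln of -0.02. Cald1, the actin-binding protein caldesmon, had signals of 8013 to 9463 in the ApoE-null mother group, against 7268 to 10163 in the wild-type mother group (log2 difference -0.01). Tpm2, a tropomyosin that lies along the actin filament, had signals of 8497 to 10939 in the ApoE-null mother group, against 7857 to 11981 in the wild-type mother group (log2 difference -0.01). The ApoE-null mother range lay inside the wild-type mother range for both genes. Tpm1, the other tropomyosin of the set, had signals of 2356 to 3638 in the ApoE-null mother group, against 2072 to 3918 in the wild-type mother group (log2 difference 0.06). Cnn1, or calponin, which dampens the actomyosin ATPase, had signals of 2193 to 2978 in the ApoE-null mother group, against 2198 to 3456 in the wild-type mother group (log2 difference -0.11).

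Among the intermediate filament and cytoskeletal linkers, 1 of 7 differences was positive, with a median of -0.12. Pdlim7 (probe set 1428319_at), a PDZ and LIM domain protein of actin anchorage sites, had signals of 1173, 1058, 909 and 1086 in the ApoE-null mother group, against 1062, 1547 and 1547 in the wild-type mother group. Wild-type mother 2 and 3 lay above every ApoE-null mother array and wild-type mother 1 within their range. The gene had a log2 difference of -0.38 ± 0.17 (SE; limma, adjusted p = 0.601), and an unadjusted p of 0.0437 in limma. Its other probe sets (1417959_at and 1443785_x_at) had log2 differences of -0.33 and -0.19, and the difference stayed negative with 1 array left out at a time (-0.56 to -0.28). Vcl (probe set 1416156_at), or vinculin, which ties actin to integrin adhesions, had signals of 7137, 6366, 6733 and 6126 in the ApoE-null mother group, against 6402, 7954 and 7049 in the wild-type mother group, a log2 difference of -0.11 ± 0.12 (SE; limma, adjusted p = 0.819).

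The other linkers overlapped widely between groups. Des, or desmin, the muscle intermediate filament, had signals of 244, 114, 151 and 173 in the ApoE-null mother group, against 129, 206 and 243 in the wild-type mother group, with arrays of both groups at the low and the high end. Its log2 difference was -0.18, and 0.01 without wild-type mother 3. Synpo2, which bundles actin, had signals of 4534 to 5883 in the ApoE-null mother group, against 4933 to 6550.1 in the wild-type mother group (log2 difference -0.12). Actn1, an alpha-actinin that crosslinks actin, had signals of 6573 to 8144 in the ApoE-null mother group, against 6154 to 9867 in the wild-type mother group (log2 difference -0.12). Flna, the crosslinker filamin A, had signals of 4497 to 5184 in the ApoE-null mother group, against 3914 to 5231 in the wild-type mother group (log2 difference 0.01). Smtn, or smoothelin, a marker of contractile smooth muscle, had signals of 1062 to 1539.5 in the ApoE-null mother group, against 1028 to 1754 in the wild-type mother group (log2 difference -0.07). For Actn1 and Smtn the ApoE-null mother range lay inside that of the wild-type mother arrays.

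**Figure D2:**
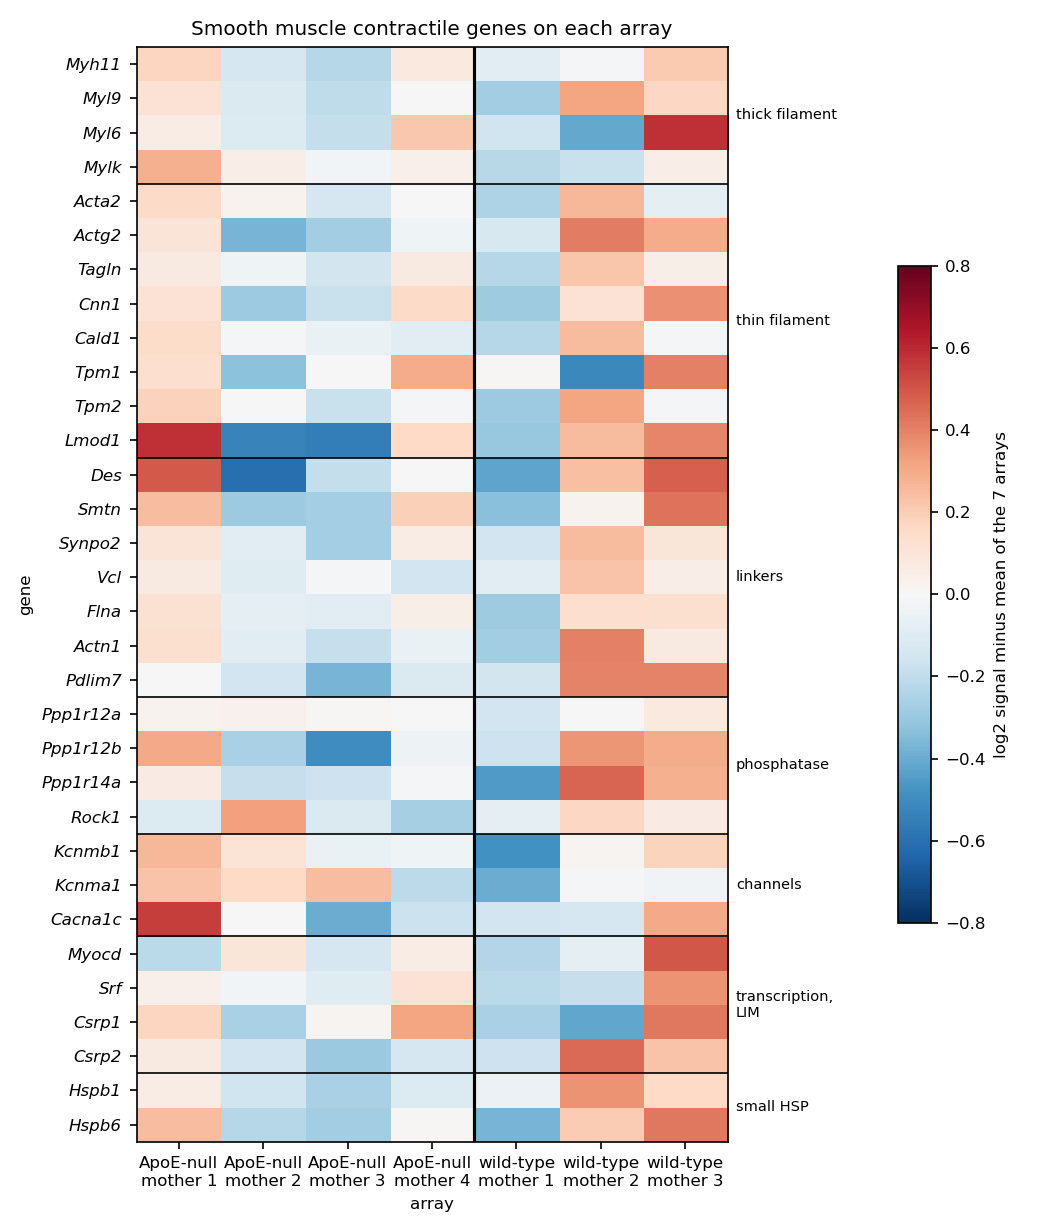
Log2 signal of each gene on each array minus the gene's mean over the 7 arrays (colour, red above and blue below), with ApoE-null mother arrays on the left and wild-type mother arrays on the right and genes grouped by role. Wild-type mother 1 is below the mean for 31 of 32 genes and wild-type mother 3 above it for 28, while ApoE-null mother 1 is above it for 29.

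Of the genes that set the activity of myosin phosphatase, 1 of 4 had a positive difference, with a median of -0.13. Ppp1r12b (probe set 1434786_at), a targeting subunit of the phosphatase, had signals of 2621, 1773, 1503 and 2063 in the ApoE-null mother group, against 1893, 2706 and 2609.8 in the wild-type mother group, a log2 difference of -0.28 ± 0.20 (SE; limma, adjusted p = 0.725). ApoE-null mother 1 lay between the upper wild-type mother arrays, and ApoE-null mother 3 was the lowest array. Ppp1r14a (probe set 1418086_at), which encodes the phosphatase inhibitor CPI-17, had signals of 3996, 3369, 3413 and 3804 in the ApoE-null mother group, against 2793, 5283 and 4653 in the wild-type mother group, a log2 difference of -0.17 ± 0.19 (SE; limma, adjusted p = 0.834). All 4 ApoE-null mother arrays lay between wild-type mother 1 and the other 2 wild-type mother arrays. Leaving out wild-type mother 1 gave a Ppp1r14a difference of -0.45, and leaving out wild-type mother 2 gave 0.01, so the direction depended on which of them was kept.

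Ppp1r12a, the main targeting subunit of the phosphatase in smooth muscle, was the steadiest gene of the set. Its signals were 5661, 5688, 5579 and 5532 in the ApoE-null mother group, against 4985, 5565 and 5859 in the wild-type mother group, and the highest was 1.18 times the lowest. It had a log2 difference of 0.04 ± 0.11 (SE; limma, adjusted p = 0.94). Rock1, a kinase that restrains the phosphatase, had signals of 4248, 5770.4, 4238 and 3812 in the ApoE-null mother group, against 4363, 5139.9 and 4807 in the wild-type mother group, with ApoE-null mother 2 the highest array and ApoE-null mother 4 the lowest. Its log2 difference was -0.09, and all 5 of its probe sets had negative differences, of -0.33 to -0.06.

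The ion channels had 2 of 3 positive differences and a median of 0.17. Kcnma1 (probe set 1428948_at), the pore of the large-conductance calcium-activated potassium channel that counters contraction, had signals of 539, 514, 546 and 398 in the ApoE-null mother group, against 349, 457 and 450.3 in the wild-type mother group, a log2 difference of 0.25 ± 0.17 (SE; limma, adjusted p = 0.715). ApoE-null mother 4 lay among the wild-type mother arrays and the other 3 above them. Kcnmb1 (probe set 1421400_at), the beta subunit that gives this channel its calcium sensitivity in smooth muscle, had signals of 667, 598, 534 and 541 in the ApoE-null mother group, against 396, 563 and 628 in the wild-type mother group, a log2 difference of 0.17 ± 0.18 (SE; limma, adjusted p = 0.825). Wild-type mother 1 was the lowest array for both subunits, and the Kcnmb1 difference was -0.03 without it. Cacna1c, the pore of the L-type calcium channel, had signals of 148 to 288 in the ApoE-null mother group, against 176 to 242 in the wild-type mother group, and a log2 difference of -0.01.

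Among the transcriptional and LIM cofactors, 2 of 4 differences were positive, with a median of -0.05. Csrp2 (probe set 1420731_a_at), a LIM protein of vascular smooth muscle, had signals of 6756, 5782, 5228 and 5861 in the ApoE-null mother group, against 5736, 8817 and 7535 in the wild-type mother group. Wild-type mother 2 and 3 lay above all ApoE-null mother arrays and wild-type mother 1 among them, and the gene had a log2 difference of -0.30 ± 0.15 (SE; limma, adjusted p = 0.639). Its relative Csrp1 (probe set 1425811_a_at), which differed in sign, had signals of 2989, 2213, 2693 and 3294 in the ApoE-null mother group, against 2215, 1985 and 3557 in the wild-type mother group, a log2 difference of 0.15 ± 0.20 (SE; limma, adjusted p = 0.868). Leaving out wild-type mother 3, its highest array, gave a Csrp1 difference of 0.40, and leaving out wild-type mother 2, its lowest, gave -0.02.

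Both partners of the controlling complex overlapped between the crosses. Myocd, or myocardin, had signals of 1002, 1244, 1059 and 1215 in the ApoE-null mother group, against 991, 1109 and 1643 in the wild-type mother group, and a log2 difference of -0.11, or 0.10 without wild-type mother 3, its highest array. Srf had signals of 469, 450.3, 428 and 495 in the ApoE-null mother group, against 393, 402 and 586 in the wild-type mother group, and a log2 difference of 0.02. Apart from wild-type mother 3, the 6 Srf signals lay between 393 and 494.5.

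The small heat shock proteins both had negative differences. Hspb1 (probe set 1422943_a_at), which stabilises actin filaments and is a substrate of stress kinases, had signals of 3552, 3057, 2858 and 3166 in the ApoE-null mother group, against 3299.7, 4386 and 3816 in the wild-type mother group, a log2 difference of -0.27 ± 0.13 (SE; limma, adjusted p = 0.627). Wild-type mother 1 lay within the ApoE-null mother range and the other 2 wild-type mother arrays above it. Another probe set of Hspb1 (1425964_x_at) had signals of 1777, 1262, 1468 and 1551 in the ApoE-null mother group, against 1659.7, 2695 and 2435 in the wild-type mother group, a log2 difference of -0.56 ± 0.18 (SE; limma, adjusted p = 0.523). Hspb6 (probe set 1436332_at), or HSP20, whose phosphorylation accompanies relaxation, had signals of 3682, 2658, 2565 and 3134 in the ApoE-null mother group, against 2398, 3573 and 4167 in the wild-type mother group, a log2 difference of -0.14 ± 0.19 (SE; limma, adjusted p = 0.862). The Hspb6 signals of ApoE-null mother 1 and wild-type mother 3 were high and those of wild-type mother 1 and ApoE-null mother 2 and 3 low.

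Arrays of the same cross varied among themselves. For 16 of the 32 genes the lowest signal was on wild-type mother 1, which had the lowest signal for 13.4% of all genes. The highest was on wild-type mother 2 for 14 of the 32 genes and on wild-type mother 3 for 11, against 18.8% and 17.4% of all genes. In 16 genes both the highest and the lowest of the 7 arrays belonged to the wild-type mother group. The SD of log2 signal was larger in the wild-type mother group for 27 of 32 genes, against 55.9% of all genes. Its median over the set was 0.15 in the ApoE-null mother group and 0.31 in the wild-type mother group, while over all genes it was 0.23 in the ApoE-null mother group and 0.25 in the wild-type mother group. With 4 and 3 arrays these SDs are themselves imprecise, and the difference in spread was not tested.

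**Figure D3:**
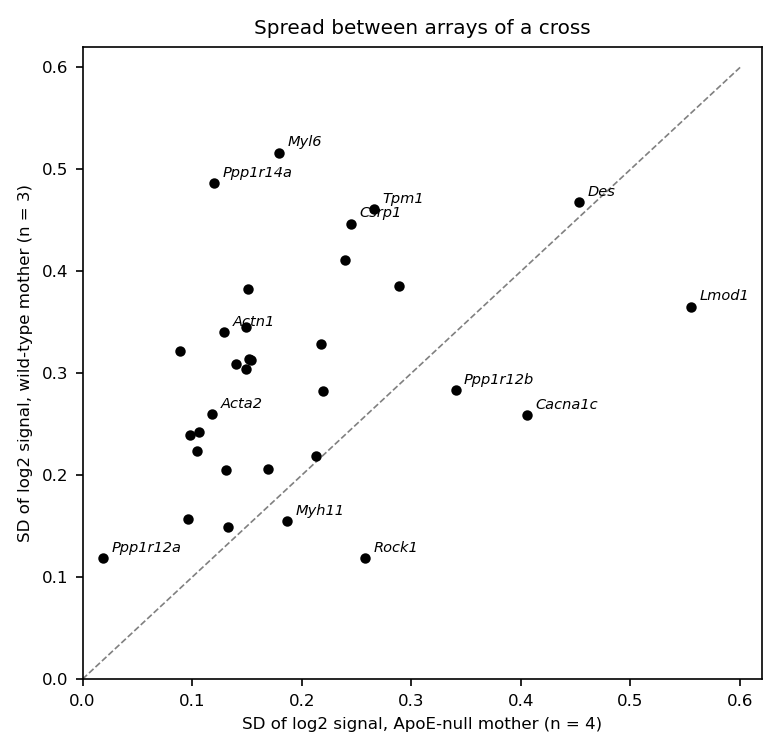
SD of log2 signal between arrays of a cross for each of the 32 genes, ApoE-null mother (n = 4) on the horizontal and wild-type mother (n = 3) on the vertical axis, with equal spread as a dashed line. For 27 genes the point lies above the line, and Lmod1, Cacna1c, Ppp1r12b, Rock1 and Myh11 lie below it.

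The arrays differed in their level over the set, in part by role group. The median deviation of the 32 genes from their 7-array means was 0.12 on ApoE-null mother 1, -0.10 on ApoE-null mother 2 and -0.18 on ApoE-null mother 3, with ApoE-null mother 4 between the first 2. It was -0.23 on wild-type mother 1, 0.21 on wild-type mother 2 and 0.22 on wild-type mother 3. The median deviation of all genes was within -0.01 and 0.03 on every array. Wild-type mother 1 was negative in all 7 role groups, and ApoE-null mother 1 positive in all 7. Wild-type mother 2 differed by role group, at 0.25 for the thin filament, 0.24 for the linkers and 0.28 for the heat shock proteins but -0.10 for the thick filament and -0.13 for the transcription and LIM cofactors. ApoE-null mother 2 was at 0.11 for the channels and negative in the other 6 role groups, and ApoE-null mother 4 ran from -0.17 for the channels to 0.09 for the transcription and LIM cofactors.

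**Figure D4:**
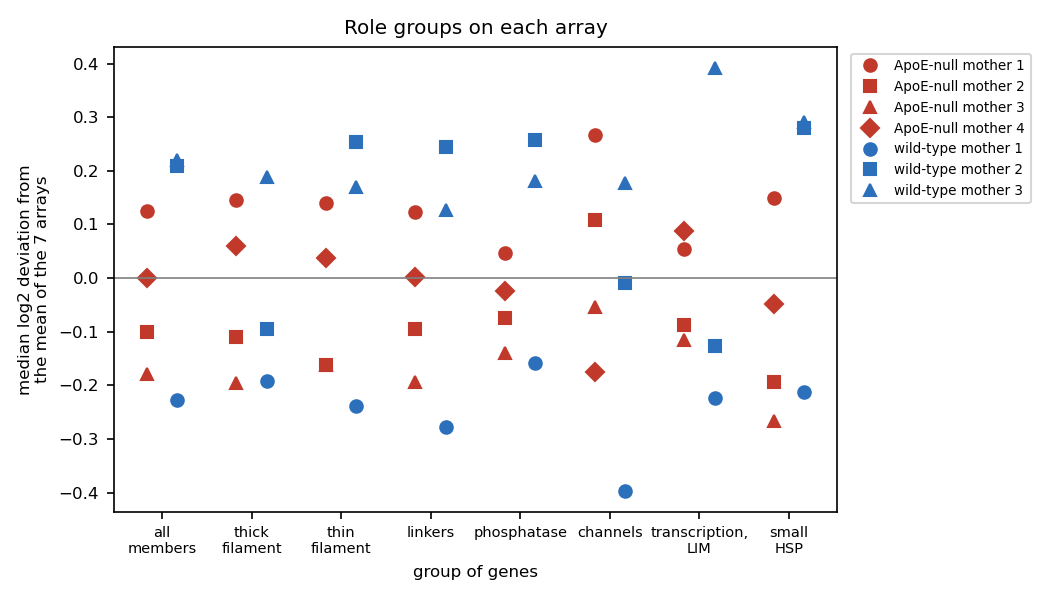
Median log2 deviation from the 7-array mean (vertical axis) of all 32 genes and of each role group, by array (red, ApoE-null mother; blue, wild-type mother; symbols, replicates). Wild-type mother 1 lies below 0 and ApoE-null mother 1 above 0 in every role group, while wild-type mother 2 is between -0.13 and 0.28.

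The chosen probe sets of Tpm1, Csrp1 and Myl6 shared a pattern of their own, in which wild-type mother 2 was the lowest and wild-type mother 3 the highest array. Tpm1 was at 2072 on wild-type mother 2 and 3918 on wild-type mother 3, Csrp1 at 1985 and 3557, and Myl6 at 629 and 1252. A second probe set of Mylk (1425505_at) did the same, at 2245 and 4186, while the chosen Mylk probe set had 5408 and 6355. Another of Csrp1 (1425810_a_at) also followed the pattern, at 99.3 and 369. The other fitted probe sets of Tpm1 (1456623_at and 1423049_a_at) were highest on wild-type mother 3 but lowest on ApoE-null mother 3, at 266 and 249. The ratio of 3 prime to 5 prime signal, which grows as RNA is degraded or copied incompletely, was highest on wild-type mother 2 (7.80 for Gapdh and 6.71 for Actb) and was 5.36 and 2.17 on wild-type mother 3. It was 5.07 to 6.56 for Gapdh and 2.61 to 5.23 for Actb in the ApoE-null mother group. The part of RNA integrity in this pattern was not tested.

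Wild-type mother 2 also stood apart in other ways. Its signal of Xist, a transcript of female cells, was 41.2, against 5174 to 5931 on the other 6 arrays. The summed signal of 15 skeletal muscle markers, of which 13 passed the filter and none was under background on every array, was 519 to 1544 in the ApoE-null mother group and 638 to 3360 in the wild-type mother group, with the maximum on this array. Some of the 13 passed the filter only through this array. Myh4 was at 346.7 on it and 0.4 to 11.2 on the others, and Tnnc2 at 525.8 against 7.9 to 23.4. Their differences mostly restate this array and are not read as a difference between the crosses, and 0 of the 13 passed in limma. Des, Tpm1 and Tpm2 are also genes of striated muscle. On wild-type mother 2, Tpm2 was at its highest (11981) and Tpm1 at its lowest (2072). Des was at 206 there, below 244 on ApoE-null mother 1 and 243 on wild-type mother 3. Without the array no gene of the set passed or had an unadjusted p under 0.05 in limma, and the median difference was -0.05. The part of adhering skeletal muscle in these signals was not tested.

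Other cell types of the sample were read from their own markers. The 10 further markers of vascular smooth muscle that are not in the set had 3 positive and 7 negative differences with a median of -0.15. Their summed signal was 22733 to 24006 in the ApoE-null mother group and 23933 to 27762 in the wild-type mother group, a slight overlap. Rgs5 alone ran from 1095 to 5502 on the wild-type mother arrays, against 1533 to 3888 on the others. The sum is therefore not read as a difference between the crosses. The groups were apart for 2 of the 10 (20%, against the 8.58% of all genes). Gucy1a1 was higher in the ApoE-null mother group (1984.5 to 2059 against 1428 to 1635) and Cspg4 lower (1345 to 1827 against 1933 to 2398). The summed signal of 9 thymocyte and T cell markers was 451 to 702 in the ApoE-null mother group and 142 to 232 in the wild-type mother group, without overlap. Of these, 6 passed the filter, some of them only through the ApoE-null mother group, so their differences are not summarised. Cd3d and Cd3g were at or under background on every wild-type mother array, at 4 to 20.8 and 6.9 to 10.9. Cd8a, which was above background on every array, overlapped and went the other way. It was at 58.3 to 118.7 in the ApoE-null mother group (mean 89.0) and 77.7 to 121 in the wild-type mother group (mean 96.5). Rag2 was at background on all arrays of both groups. Summed markers of endothelium (10 of 10 measured) were 5017 to 6883 in the ApoE-null mother group and 5012 to 6330 in the wild-type mother group, and those of fibroblasts (9 of 9) were 41647 to 50416 in the ApoE-null mother group and 43062 to 50645 in the wild-type mother group. The median difference was 0.03 for endothelium (6 of 10 positive) and -0.03 for fibroblasts (4 of 9 positive). Adipocyte markers (8 of 9) summed to 19379 to 26760 in the ApoE-null mother group and 9399 to 25818 in the wild-type mother group, and 6 of the 8 differences were positive, with a median of 0.27. Among them Ucp1, the uncoupling protein of brown fat, which is named after its values were seen, was at 3147 to 5060 in the ApoE-null mother group and 420 to 2297 in the wild-type mother group, without overlap. Ganglion and glomus cell markers (8 of 8) summed to 545 to 1622 in the ApoE-null mother group and 529 to 4684 in the wild-type mother group, and all 8 differences were negative, with a median of -0.76. The maximum of this sum was on wild-type mother 1, the array lowest in contractile genes. Schwann cell markers (5 of 8) summed to 4221 to 6925 in the ApoE-null mother group and 5466 to 9296 in the wild-type mother group, and all 5 differences were negative, with a median of -1.04. Macrophage markers (8 of 8) summed to 4971 to 6053 in the ApoE-null mother group and 4539 to 5341 in the wild-type mother group, and 6 of the 7 fitted differences were positive, with a median of 0.13. Heart muscle markers (11 of 11, of which 4 passed the filter and Myl7 was at background throughout) summed to 599 to 632 in the ApoE-null mother group and 548 to 1065 in the wild-type mother group, and 2 of the 4 differences were positive, with a median of 0.18. In such bulk tissue a smaller number of smooth muscle cells and less RNA per cell cannot be told apart, and the part of sample composition in the contractile signals was not tested.

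Other probe sets of the same genes gave the widest differences. The 32 genes had between 1 and 5 fitted probe sets each, and in 6 genes (Mylk, Acta2, Tpm1, Ppp1r12a, Kcnma1 and Srf) these differed in sign. The chosen probe sets of Acta2, Cald1 and Srf, and that of Actg1 below, have the suffix _s_at, given to probes that match more than 1 transcript. The suffix _x_at marks probes that may cross-hybridise, here in probe sets of Hspb1, Tpm2, Pdlim7, Cd8a and Tagln2. Another probe set of Tpm1 (1456623_at) had signals of 632, 284, 266 and 419 in the ApoE-null mother group, against 591, 551 and 752 in the wild-type mother group, a log2 difference of -0.73 ± 0.27 (SE; limma, adjusted p = 0.55). Its ApoE-null mother arrays were lower except for the first, and the chosen Tpm1 probe set was at 0.06. Another of Ppp1r12b (1445850_at) had signals of 227, 123, 98.0 and 132 in the ApoE-null mother group, against 246, 265 and 207 in the wild-type mother group, a log2 difference of -0.78 ± 0.25 (SE; limma, adjusted p = 0.523). Again 3 ApoE-null mother arrays lay below all wild-type mother arrays and the first among them. The other probe sets of Acta2 were at 0.02 and -0.50, and that of Srf at -0.30. Those of Mylk were at 0.05 and -0.20, those of Ppp1r12a at -0.23, 0.06 and 0.05, and those of Kcnma1 between -0.28 and 0.48. A Tpm2 probe set that passed the filter narrowly (1449577_x_at) had signals of 5.1 to 21.5 in the ApoE-null mother group, against 17.8 to 63.8 in the wild-type mother group, at or under background on 3 arrays, and the largest difference among them (-1.31). Of the 70 fitted probe sets, these 4 of Tpm1, Tpm2, Ppp1r12b and Hspb1 had an unadjusted p under 0.05 in limma besides the chosen one of Pdlim7. None passed after adjustment (limma, adjusted p = 0.523 to 0.585). At that unadjusted p there were 8.65% of all genes. The share of all probe sets is not given, so this count is not read as a result about the set.

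**Figure D5:**
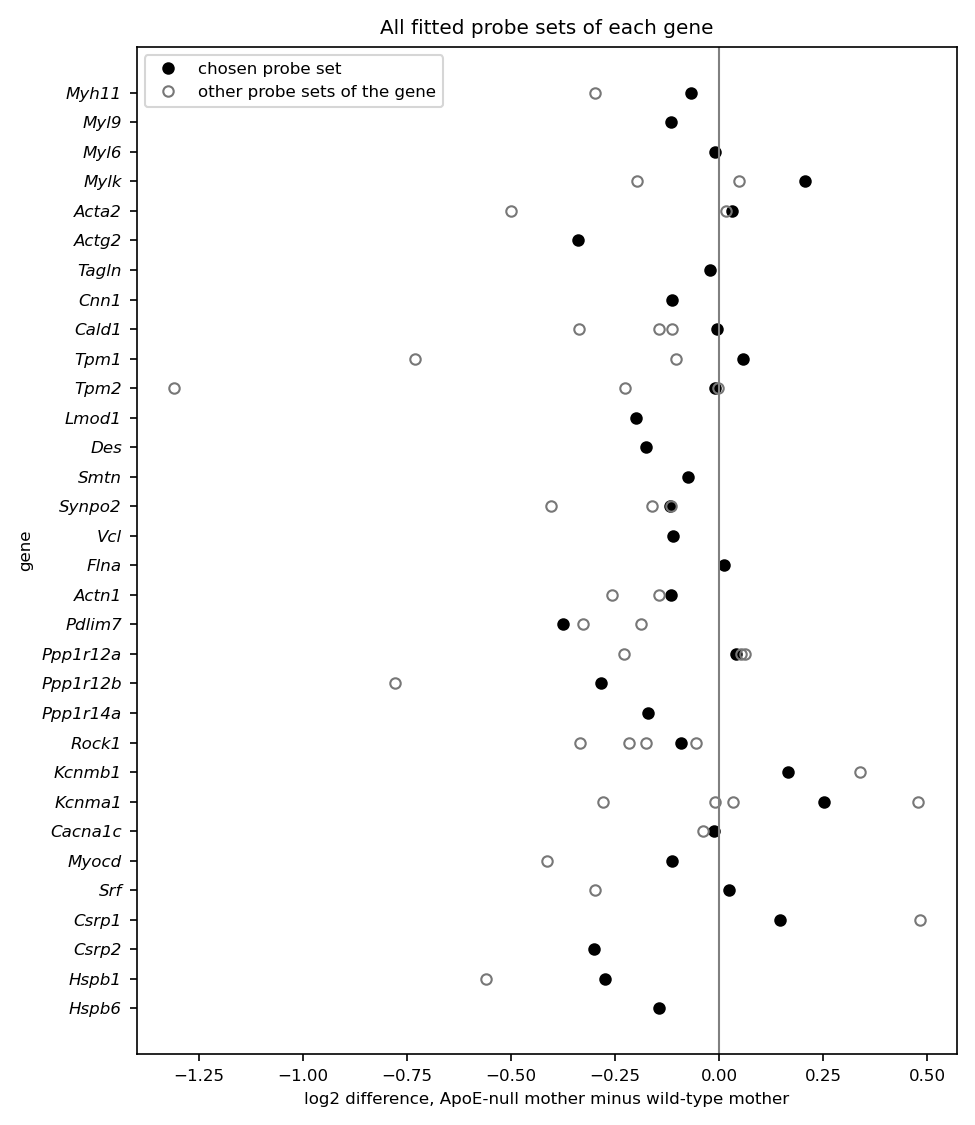
Log2 difference (ApoE-null mother minus wild-type mother) of every fitted probe set of the 32 genes, with the chosen brightest probe set filled and the others open. The open points of Tpm2 (-1.31), Ppp1r12b (-0.78), Tpm1 (-0.73) and Hspb1 (-0.56) lie farthest to the left.

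Genes around the contractile apparatus were read from 5 lists of 100 names, some of them older names of the same gene, of which 88 were fitted. None passed the test in either direction (limma), the median difference was -0.05, and 37 were positive. At an unadjusted p under 0.05 in limma there were 2 higher and 7 lower (10.2%), against the 8.65% of all genes. The groups were apart for 3 higher and 9 lower (13.6%), against the 8.58%.

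Non-muscle relatives of the contractile proteins had 2 positive and 12 negative differences of 14, with a median of -0.10. Tagln2, the paralog of Tagln found outside muscle, had signals of 1901, 1753, 2166 and 3019 in the ApoE-null mother group, against 3626, 3262 and 3807 in the wild-type mother group, a log2 difference of -0.72 ± 0.18 (SE; limma, adjusted p = 0.458). Every ApoE-null mother array was below every wild-type mother array, and the value was -0.88 to -0.62 with 1 array left out at a time. Actn4, a non-muscle alpha-actinin, had signals of 2645, 2425, 2732 and 3173 in the ApoE-null mother group, against 3210.3, 3806 and 5004 in the wild-type mother group, a log2 difference of -0.53 ± 0.16 (SE; limma, adjusted p = 0.508). The groups did not overlap, and the value was -0.68 to -0.36 with 1 array left out at a time, nearest to 0 without wild-type mother 3. The groups were also apart for Myh10, a non-muscle myosin (log2 difference -0.23), and Actg1, the cytoplasmic gamma actin (log2 difference -0.17), which are named after their values were seen. These 4 of the 14 (28.6%, against the 8.58% of all genes) were all lower in the ApoE-null mother group, and the list was not tested.

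Of the adhesion and dense plaque genes, 9 of 23 were positive, with a median of -0.06. Itga5, the fibronectin receptor subunit, had signals of 214, 228, 149 and 203 in the ApoE-null mother group, against 297, 366 and 311 in the wild-type mother group, a log2 difference of -0.72 ± 0.18 (SE; limma, adjusted p = 0.459). Pdlim5, a relative of Pdlim7, had signals of 2753, 3389.5, 2992 and 3167 in the ApoE-null mother group, against 3829, 3556 and 3977 in the wild-type mother group, a log2 difference of -0.30 ± 0.12 (SE; limma, adjusted p = 0.57). Neither gene overlapped between the groups, with the ApoE-null mother arrays lower. They were the 2 of 23 without overlap (8.7%), near the 8.58% of all genes. Dmd, of the same list and named after its value was seen, went the other way at 0.41, with overlap. Among calcium and membrane potential genes, 7 of 19 were positive with a median of -0.03, and Orai1, the store-operated calcium channel, was at -0.39 and Trpc1, a cation channel, at -0.33.

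Among the regulators of the smooth muscle state, 10 of 19 were positive, with a median near 0. Ankrd1, a target of mechanical strain signalling, had signals of 29.6, 64.1, 38.1 and 69.6 in the ApoE-null mother group, against 75.6, 76.9 and 88.9 in the wild-type mother group, a log2 difference of -0.73 ± 0.30 (SE; limma, adjusted p = 0.585). Mef2a, a muscle transcription factor, had signals of 1301, 1391, 1475 and 1225 in the ApoE-null mother group, against 1027, 1187 and 1134 in the wild-type mother group, a log2 difference of 0.27 ± 0.13 (SE; limma, adjusted p = 0.617). Klf4, which represses contractile genes in smooth muscle and is named after its values were seen, had signals of 4836, 4602, 4738 and 4515 in the ApoE-null mother group, against 4325, 3946 and 3896 in the wild-type mother group, a log2 difference of 0.21 ± 0.11 (SE; limma, adjusted p = 0.642). The groups did not overlap for 4 of the 19 (21.1%, against the 8.58% of all genes), with Mef2a and Klf4 higher and Ankrd1 and Fhl2 lower in the ApoE-null mother group. Fhl2, a LIM-only cofactor also named after its values were seen, had signals of 93.4, 77.0, 88.8 and 67.5 in the ApoE-null mother group, against 115, 98.7 and 108 in the wild-type mother group, a log2 difference of -0.39 ± 0.19 (SE; limma, adjusted p = 0.625).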

How the data were processed

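Affymetrix Mouse 430 2.0 arrays were used for 7 carotid RNA samples, amplified over 2 cycles with an oligo-dT primer per the labels' protocols. The authors deposited 1 intensity per probe set and array on a linear scale. The submitters' processing notes name MAS5 and GCOS, with versions not given in the sources used here. No detection calls were used. The 2% trimmed mean was the same on every array, and this scaling was kept.

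Groups came from the cross in the labels. Symbols came from the platform annotation (34958 probe sets with 1 symbol, 932 with several and 9211 with none), and 0 changed on comparison with RefSeq genes of GRCm38.p6. Signals were taken as log2(signal + 2), the pseudocount being the rounded 10th percentile. The 64 control probe sets and those with a mean at or below the 40th percentile were left out, and 27027 were fitted in limma 3.58.1 (R 4.3.3; lmFit, then eBayes with a trend), with Benjamini-Hochberg adjustment over all of them. The fit was tested on simulated data. There it called 6.4% of 1.5-fold, 30% of 2-fold and 75.6% of 4-fold changes, so changes of 2-fold or less mostly went uncalled. Fold changes on this scale understate changes of weak signals. The precision is limited by the number of arrays.

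The genes, role groups and lists were chosen with earlier results of these data known. Contractile genes past the threshold, without overlap, or among the 2 with the smallest p of a role group were given in full, and the others by their range or signals. Wider genes were named where they passed the threshold or were among the 2 with the smallest p of a list. Probe sets were named where they differed in sign from the chosen one, and those with a small unadjusted p were added after their values were seen. Alternatives were other pseudocounts, filters, normalization, variance settings and probe set choice, and each array left out. One of the wider lists is counted in the total and not reported here by itself.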

Additional observations from a re-analysis of the deposited data

How the results depend on the processing

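None of the 32 contractile genes passed in limma under the main setting or the alternatives run, nor did a wider gene under those run for it, which leave out the average over all probe sets of a gene, and the smallest adjusted p of a contractile gene in any of them was 0.36, for Pdlim7 without wild-type mother 1. At an unadjusted p under 0.05 there were 8 contractile genes lower without wild-type mother 1, 5 lower without ApoE-null mother 1, 4 lower and 1 higher after quantile normalization, 2 lower with all probe sets averaged, and 1 higher and 0 lower without wild-type mother 3. There were 0 in either direction without ApoE-null mother 2, 3 or 4, without wild-type mother 2 and without an intensity trend, against 1 lower in the main setting and in the other settings. The share of all genes at that p is not given for the alternatives, so these counts are not read as a result about the set. Leaving out 1 array at a time gave a median difference of the set of -0.17 to 0.01, positive only without wild-type mother 3, and -0.15 when all probe sets of a gene were averaged. It was -0.11 to -0.07 under the other settings. When each array was left out, 11 of the 32 genes kept their sign throughout, and 23 did so under the other settings. Over all probe sets, 1 passed in the main setting, 3 with a pseudocount of 64, 2 after quantile normalization, 2 with array weights, 0 without an intensity trend, and 0 to 18 with 1 array left out, namely 18 without wild-type mother 1, 4 without wild-type mother 3 and 0 without any 1 of the 4 ApoE-null mother arrays. The cause was not tested. No paired analysis was possible because the array numbers in the titles do not repeat between the crosses.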
